A study of Mus musculus with 24 samples.

Results

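The 10 genes described here are 3 ligands of the transforming growth factor beta (TGF-beta) pathway (Tgfb1, Tgfb2 and Tgfb3), its receptor subunits Tgfbr1 and Tgfbr2, the inhibitory Smad gene Smad7, the Id genes Id1, Id2 and Id3, and the transcription factor gene Sox4. They were picked by name, with earlier results of these data known. The choice was made from the 19938 genes that the arrays represented with a probe set of 1 gene symbol. Each of the 10 had 1 such probe set. Signals were measured on 24 Affymetrix arrays of 4T1, a metastatic mouse mammary carcinoma line kept in culture. The control group was grown with 3 mM glucose and without lactic acid, and the treated groups were grown with 3 mM glucose and 20 mM lactic acid for 1, 3, 4, 5, 7, 9 or 11 days. Each of the 8 groups had 3 arrays, and all 8 shared the low glucose concentration. The labels do not give the control's time in culture, so the effect of lactic acid and that of time in culture cannot be told apart. They call the replicates biological without naming separate cultures, so p-values measure only the spread between these arrays.

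TGF-beta ligands are secreted in a latent complex and, once released, bind Tgfbr2, which phosphorylates Tgfbr1. Tgfbr1 then phosphorylates Smad2 and Smad3, which move to the nucleus with Smad4, and Smad7 is a target that feeds back on the receptor. Id proteins lack a DNA-binding region and hold E proteins (basic helix-loop-helix factors) away from DNA; bone morphogenetic proteins (BMPs) are their classic inducers, and TGF-beta raises or lowers them depending on the cell. Sox4, a factor of the SoxC group, is induced by TGF-beta in mammary epithelial cells and is frequently high in carcinomas.

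Promoter sequence is shown for 4 of the genes because their signals followed 4 different courses over the days: Tgfb2 rose late and declined, Id2 rose late and was still high on day 11, Id3 fell and came back, and Sox4 rose from day 1. The sequences are the 250 bases before the annotated start, 5′ to 3′ on the gene's strand, from the RefSeq table of mouse build GRCm38.p6, which held 7 of the 10 genes. Capitals mark matches, on either strand, to the TATA box (TATAAA), an E-box (CACGTG), the CCAAT box (CCAAT), the Smad element CAGAC and the GC-rich Smad element GGCGCC.
Tgfb2 lies on the minus strand, and the window shown is chr1:186705990-186706239.
Tgfb2: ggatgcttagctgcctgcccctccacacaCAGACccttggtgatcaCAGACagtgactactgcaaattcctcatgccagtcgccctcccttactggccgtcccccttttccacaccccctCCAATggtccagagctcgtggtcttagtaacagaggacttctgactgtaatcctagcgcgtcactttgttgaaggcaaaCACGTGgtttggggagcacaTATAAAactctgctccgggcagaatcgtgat
Id2 lies on the minus strand, with the window chr12:25096093-25096342.
Id2: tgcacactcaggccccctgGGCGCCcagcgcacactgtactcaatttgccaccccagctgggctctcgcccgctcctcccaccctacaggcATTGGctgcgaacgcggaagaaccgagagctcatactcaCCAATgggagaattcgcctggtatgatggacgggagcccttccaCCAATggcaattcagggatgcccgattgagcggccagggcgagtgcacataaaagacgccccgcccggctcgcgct
Id3 lies on the plus strand, with the window chr4:136143572-136143821.
Id3: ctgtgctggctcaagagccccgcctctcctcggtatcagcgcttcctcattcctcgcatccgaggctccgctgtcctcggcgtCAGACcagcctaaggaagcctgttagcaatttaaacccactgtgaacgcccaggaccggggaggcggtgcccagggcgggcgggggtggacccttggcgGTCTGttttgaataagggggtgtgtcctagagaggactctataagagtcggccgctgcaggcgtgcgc
Sox4 lies on the minus strand, with the window chr13:28953700-28953949.
Sox4: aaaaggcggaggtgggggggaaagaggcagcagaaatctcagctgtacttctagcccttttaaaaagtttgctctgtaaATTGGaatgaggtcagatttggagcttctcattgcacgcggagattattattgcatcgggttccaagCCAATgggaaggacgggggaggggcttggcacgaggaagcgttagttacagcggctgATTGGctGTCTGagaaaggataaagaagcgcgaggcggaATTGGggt
The Tgfb2 window held a TATAAA match at -31, a CACGTG match at -51, a CCAAT match at -130 and CAGAC matches at -221 and -204, counted from the start. Id2 had 3 CCAAT matches and 1 GGCGCC match, Id3 had 2 CAGAC matches at -167 and -68, and Sox4 had 4 CCAAT matches and a CAGAC match at -40. Among 32851 promoter windows of the same length in the table, 12.4% held TATAAA, 6.0% CACGTG, 33.8% CCAAT, 42.2% CAGAC and 9.6% GGCGCC. None of these matches overlapped another, and they are letters found in a window, not sites at which a factor was measured.

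The values are log2 signals, so a difference of 1 is a doubling, and a gene was called when the adjusted p (limma, Benjamini-Hochberg over all 19938 genes) was below 0.05. Differences are given with the standard error (SE) of the fit. The epithelial keratin genes Krt8 and Krt18 averaged 11.12 and 11.05 in control, both at the 99.3 percentile of genes, while the epithelial adhesion genes Epcam (4.12) and Cdh1 (5.20) stood only at the 36.2 and 51.0 percentiles. The mean of 8 fibroblast markers, all of them measured, was 4.78 to 4.90 on control arrays and 5.13 to 5.54 from day 3 to day 11. In that list Dcn and Lum did not pass 4.14 and 2.72 on any array, from control means of 2.79 and 2.01 (12 and 1.7 percentiles). Pdgfra and Pdgfrb reached 10.23 and 7.22, from 7.28 and 5.3 in control. Thy1 did not pass 5.83 (4.95 in control). Col1a1, Col1a2 and Col3a1 did not pass 5.95, 5.64 and 5.64 (5.5, 5.38 and 5.42 in control). Means of the 6 leukocyte, 5 endothelial and 4 adipocyte markers measured were highest on day 1 replicate 1, at 4.51, 4.17 and 3.68. That array also had the highest median over all probe sets (4.75) and a narrow spread (SD 2.16, against 2.39 to 2.52 on the other arrays), and day 9 replicates 2 and 3 had the next highest medians, 4.70 and 4.64. Other measures set day 9 replicate 1 apart instead. Its mean correlation with its own group was 0.989, against 0.991 and 0.992 for replicates 2 and 3. Its limma array weight was 0.18, against 0.62 and 6.96. Which day 9 arrays are the odd ones is therefore not settled. The part of these arrays in the results, and that of the markers, was not tested. Values without these arrays stand beside the results they moved most. In RNA from whole cultures, fewer cells of a type and less RNA per cell cannot be told apart.

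Tgfb2, Tgfb3, Tgfbr1 and Id2 were not called after 1 day and then stood higher than control from day 3 (Tgfb3 and Id2 missed the threshold on day 9), while Sox4 was higher from day 1 through day 11. Tgfb1 and Tgfbr2, whose signals were bright in control, moved by at most 0.54 log2 units on any day. Id1 and Id3 fell between day 1 and day 3, in the opposite direction to Id2. The F test for any difference between the 7 treated days called 9 of the 10 genes, against 44.8% of all genes, and Smad7 was the one that missed (adjusted p = 0.0676; with day 9 replicate 1 left out, 0.00181).

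**Figure D1:**
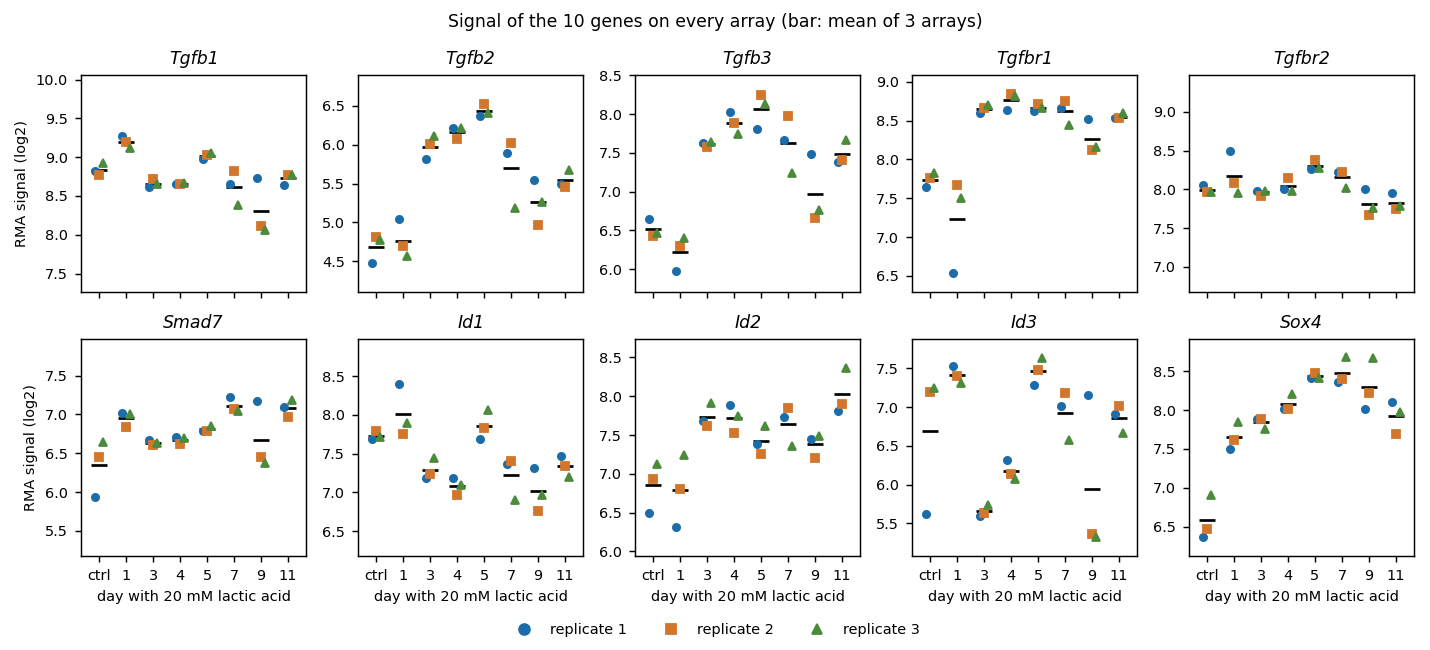
Log2 signal of each of the 10 genes (y axis, each panel with its own range) on each of the 24 arrays, by control and day with 20 mM lactic acid (x axis); points are arrays, shaped by replicate, and bars are means of 3 arrays. Sox4 lies between 7.50 and 8.68 on the treated arrays against 6.36 to 6.91 in control, and Id3 has 1 low control array at 5.62.

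Tgfb2 encodes the ligand that needs the co-receptor betaglycan to bind well. Its signals were 4.48, 4.81 and 4.77 in control and 5.04, 4.69 and 4.56 on day 1. Day 3 arrays gave 5.81, 6.01 and 6.11, day 4 arrays 6.21, 6.08 and 6.21, and day 5 arrays 6.37, 6.53 and 6.41. Day 1 overlapped control, and day 5 lay above every other group. Day 7 then gave 5.89, 6.02 and 5.18, day 9 gave 5.55, 4.97 and 5.26, and day 11 gave 5.49, 5.45 and 5.68, so that every array from day 3 on was above all 3 controls. The rise over control was 1.29 on day 3 (adjusted p = 6.32e-06), 1.48 on day 4 and 1.75 on day 5 (SE 0.18, 3.35-fold, adjusted p = 8.65e-08), and then 1.01, 0.57 and 0.85 on days 7, 9 and 11 (adjusted p = 0.000118, 0.0196 and 0.00074). The day 9 rise missed the threshold without control replicate 1 (0.46, adjusted p = 0.107), day 9 replicate 1 (0.42, 0.113) or day 9 replicate 3 (0.57, 0.051), and with arrays centred on their medians (0.46, 0.0803). In order of level the groups ran from day 5 through days 4, 3, 7, 11, 9 and 1 to control, and each neighbouring pair overlapped except day 5 and day 4. The control mean of 4.69 was close to the median of all probe sets on those arrays (4.46 to 4.55), where RMA signals are compressed, so the fold may be understated.

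Tgfb3 encodes the ligand best known for palate and mammary gland involution. Control arrays read 6.65, 6.43 and 6.47, and day 1 arrays read lower, at 5.98, 6.30 and 6.40, without passing the threshold (-0.29, SE 0.19, adjusted p = 0.39; -0.17 and 0.73 without day 1 replicate 1). Day 3 gave 7.63, 7.58 and 7.64, day 4 gave 8.03, 7.89 and 7.74, and day 5 gave 7.81, 8.24 and 8.13. These 9 arrays were all above the highest control. Day 7 gave 7.66, 7.97 and 7.24, day 9 gave 7.48, 6.66 and 6.77, and day 11 gave 7.38, 7.41 and 7.66. The differences from control were 1.10, 1.37, 1.54 (2.91-fold, adjusted p = 1e-06), 1.10 and 0.97 on days 3, 4, 5, 7 and 11, with adjusted p-values from 1e-06 to 0.000332. On day 9 the difference was 0.45 and missed the threshold (adjusted p = 0.0823), although no day 9 array overlapped control. It was 0.61 without day 9 replicate 2 (adjusted p = 0.0323) and 0.20 without day 9 replicate 1 (adjusted p = 0.473). Without day 1 replicate 1 and day 9 replicates 2 and 3, which left 1 day 9 array, it was 0.97. Across the 8 group means Tgfb3 followed Tgfb2 with r = 0.97, and across the 24 arrays, which share their groups, with r = 0.93. Within arrays, Tgfb3 minus Tgfb1 was shifted from control by -0.65 on day 1 (-0.49 without day 1 replicate 1) and stood 0.99 to 1.55 higher from day 3 to day 11.

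Tgfb1, the ligand gene most widely expressed in tissues, moved little and in no constant direction. Its control signals were 8.82, 8.77 and 8.92, and day 1 gave 9.27, 9.20 and 9.12, day 3 gave 8.61, 8.72 and 8.65, and day 4 gave 8.66, 8.65 and 8.67. Day 5 arrays read 8.98, 9.03 and 9.05, day 7 arrays 8.65, 8.82 and 8.38, day 9 arrays 8.73, 8.11 and 8.06, and day 11 arrays 8.64, 8.77 and 8.77. Day 1 and day 5 lay above the controls without overlap, and days 3, 4, 9 and 11 lay below. The highest day 11 arrays and the lowest control both read 8.77 after rounding. Against control the only call was the fall on day 9 (-0.54, SE 0.14, 1.45-fold lower, adjusted p = 0.00431). The fall stayed called without day 9 replicate 2 (-0.44, adjusted p = 0.0354) or 3 (-0.42, 0.0444), and was -0.75 without replicate 1 (adjusted p = 1.63e-05). With day 9 replicates 2 and 3 and day 1 replicate 1 left out, 1 day 9 array remained and the difference was -0.11. The day 1 difference of 0.36 had an adjusted p of 0.135, and 0.0477 after cyclic loess, where it was 0.46. Without day 1 replicate 1 it was 0.32 (adjusted p = 0.242). Between day 1 and day 3 Tgfb1 fell by 0.54 (adjusted p = 0.00412).

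Tgfbr1 encodes the type I receptor kinase. It read 7.64, 7.76 and 7.82 in control and 6.54, 7.67 and 7.50 on day 1, where replicate 1 stood apart from the other two. The next 4 groups lay close together, with day 3 at 8.60, 8.66 and 8.70, day 4 at 8.64, 8.85 and 8.82, day 5 at 8.62, 8.71 and 8.66, and day 7 at 8.67, 8.75 and 8.44. Day 9 gave 8.52, 8.12 and 8.16, and day 11 gave 8.53, 8.53 and 8.60, so all 18 arrays from day 3 on were above control. The rise was greatest on day 4, at 1.03 (SE 0.19, 2.04-fold, adjusted p = 0.000127), and smallest on day 9, at 0.53 (adjusted p = 0.0363). The day 9 call was lost without control replicate 1, 2 or 3 or day 9 replicate 1 or 3 (0.40 to 0.58, adjusted p = 0.0523 to 0.16). Day 1 differed from control by -0.50 with an adjusted p of 0.121, and this turned on replicate 1: the difference was -0.16 without that array (adjusted p = 0.546) and -0.72 without day 1 replicate 2 (adjusted p = 0.0141). Days 4, 5, 3, 7 and 11 overlapped along the order of levels, day 9 came next without overlap, and control and day 1 were lowest.

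Tgfbr2, the type II receptor that binds the ligand first, did not pass the threshold against control on any of the 7 days. Its control signals were 8.06, 7.97 and 7.96, and the treated arrays ranged from 7.67 on day 9 to 8.49 on day 1. The largest difference was on day 5, where arrays of 8.26, 8.38 and 8.27 all exceeded control (0.31, SE 0.13, adjusted p = 0.0704). Its adjusted p was 0.0154 without day 1 replicate 1 in the fit and 0.189 after cyclic loess. The receptor subunits took different courses within arrays: Tgfbr1 minus Tgfbr2 was 0.61 to 0.98 above its control mean from day 3 to day 11. On day 1 it read -1.94, -0.41 and -0.45 against -0.42, -0.21 and -0.14 in control, a mean shift of -0.68 that was -0.17 without replicate 1.

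**Figure D2:**
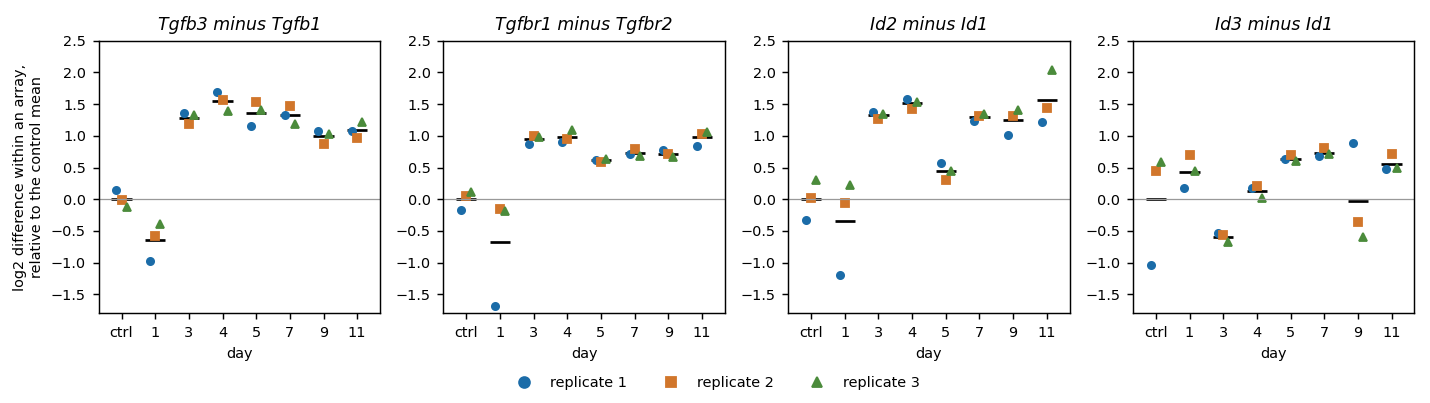
Log2 difference between 2 genes on the same array, relative to the mean of that difference on the control arrays (y axis), by control and day with 20 mM lactic acid (x axis); points are arrays, shaped by replicate, and bars are means of 3 arrays. Group means of Tgfb3 minus Tgfb1 and Tgfbr1 minus Tgfbr2 are negative on day 1 (-0.65 and -0.68, or -0.49 and -0.17 without day 1 replicate 1) and positive on each later day, and Id2 minus Id1 reaches 1.57 on day 11.

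Smad7, the inhibitory Smad that recruits ubiquitin ligases to the receptor, was called higher than control on 4 of the 7 days. Control arrays read 5.93, 6.45 and 6.65, with replicate 1 the lowest. Day 1 gave 7.02, 6.84 and 7.00, day 7 gave 7.22, 7.07 and 7.04, and day 11 gave 7.09, 6.97 and 7.18. These 3 days lay above control without overlap, by 0.61 (adjusted p = 0.036), 0.77 (SE 0.17, adjusted p = 0.00105) and 0.74 (adjusted p = 0.00156). Day 5, at 6.79, 6.79 and 6.85, also did not overlap control and was 0.47 higher (adjusted p = 0.0396). Day 3 (6.67, 6.60 and 6.63) and day 4 (6.71, 6.62 and 6.70) overlapped control. Day 9 was split, with 7.17 on replicate 1 and 6.45 and 6.38 on replicates 2 and 3. Replicates 2 and 3 lay within the range of the control arrays. Without these 2 and day 1 replicate 1, which left 1 day 9 array, the day 9 difference was 0.83. That was the highest of 18 alternatives, and the lowest was -0.03. The day 1 and day 5 calls depended on the low control array: without it the differences were 0.41 (adjusted p = 0.211) and 0.27 (adjusted p = 0.295). Day 1 also missed the threshold without day 1 replicate 1 (0.58, adjusted p = 0.0747), without control replicate 2 or day 1 replicate 3 (adjusted p = 0.0748 and 0.0598), and in a fit of only the 6 arrays compared (adjusted p = 0.443). The day 5 call was lost too without control replicate 2 or any single day 5 array (adjusted p = 0.0539 to 0.0978).

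Id1, a main BMP-responsive Id gene, was lower than control on days 4, 7 and 9. Control arrays read 7.69, 7.79 and 7.71, day 1 arrays 8.40, 7.75 and 7.90, day 3 arrays 7.18, 7.24 and 7.45, and day 4 arrays 7.19, 6.97 and 7.09. Day 5 returned to 7.69, 7.83 and 8.06, overlapping control. Day 7 then gave 7.37, 7.41 and 6.90, day 9 gave 7.31, 6.76 and 6.97, and day 11 gave 7.47, 7.34 and 7.20. All arrays of days 3, 4, 7, 9 and 11 lay below all 3 controls. The falls called were -0.65 on day 4 (SE 0.17, adjusted p = 0.00446), -0.50 on day 7 (adjusted p = 0.0287) and -0.72 on day 9 (adjusted p = 0.00191), while days 3 and 11 differed by -0.44 and -0.39 and missed the threshold (adjusted p = 0.0576 and 0.0953). The day 7 call was lost without day 7 replicate 3 (-0.34, adjusted p = 0.203) or any control array (adjusted p = 0.0569 to 0.0906). Day 9 was -0.42 without day 1 replicate 1 and day 9 replicates 2 and 3, which left 1 day 9 array. Without day 9 replicate 1, day 9 was -0.87 (adjusted p = 0.000584). Days 3 and 11 passed without day 1 replicate 1 (adjusted p = 0.019 and 0.0364). They missed by more without day 3 replicate 1 (-0.38, adjusted p = 0.177) and without day 11 replicate 3 (-0.32, adjusted p = 0.298).

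Id2, whose product also binds the retinoblastoma protein, differed from Id1 in direction. Control arrays read 6.49, 6.93 and 7.13 and day 1 arrays 6.32, 6.81 and 7.24, a range that takes in the control's. Day 3 gave 7.68, 7.62 and 7.91, day 4 gave 7.89, 7.52 and 7.75, and day 5 gave 7.38, 7.26 and 7.62. Day 7 arrays read 7.73, 7.85 and 7.36, day 9 arrays 7.45, 7.20 and 7.49, and day 11 arrays 7.81, 7.90 and 8.36. Every array from day 3 on exceeded every control and day 11 had the highest mean, although each of the 6 late groups overlapped its neighbour in the order of levels. Id2 was higher by 0.89 on day 3 (SE 0.20, adjusted p = 0.00169), 0.87 on day 4, 0.57 on day 5 (adjusted p = 0.0391), 0.80 on day 7 and 1.17 on day 11 (2.25-fold, adjusted p = 8.28e-05). Day 9, at 0.53, missed the threshold (adjusted p = 0.0553) and passed without control replicate 3 (0.67, 0.032) or day 1 replicate 1 (0.53, 0.0194). It missed by more without control replicate 1 (0.36, 0.293), day 9 replicate 1 (0.5, 0.125) or day 9 replicate 3 (0.48, 0.168), and with arrays centred on their medians (0.42, 0.211). The day 5 call was lost without control replicate 1 (0.39, adjusted p = 0.226), control replicate 2, or day 5 replicate 1 or 3.

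Id3 had the widest spread of the set. Its control arrays read 5.62, 7.20 and 7.25, with replicate 1 far below the other two, and day 1 arrays read 7.53, 7.40 and 7.31. Day 3 fell to 5.59, 5.64 and 5.74, and day 4 read 6.32, 6.14 and 6.07. On day 5 the signal was back at 7.28, 7.48 and 7.63, followed by 7.02, 7.18 and 6.58 on day 7. Day 9 was split the other way round from the controls, with 7.15 on replicate 1 and 5.36 and 5.33 on replicates 2 and 3. Day 11 read 6.91, 7.02 and 6.66. The signal was high on day 1, low on day 3 and high again on day 5, while the comparison with control turned on 1 array. Day 3 was called lower by -1.03 (SE 0.36, adjusted p = 0.0388) although it overlapped control replicate 1; the difference was -1.56 without that array (adjusted p = 0.00106), and -0.77 and -0.75 without control replicate 2 or 3 (adjusted p = 0.202 and 0.213). The day 3 call was also lost without any 1 of its own arrays (adjusted p = 0.0706 to 0.0965). No other day was called. Day 9 differed by -0.74 (adjusted p = 0.152), and by -1.27 without control replicate 1 (adjusted p = 0.00579). Without day 1 replicate 1 and day 9 replicates 2 and 3, which left 1 day 9 array, it differed by 0.46. Day 4 was -1.05 without control replicate 1 (adjusted p = 0.0228). Over the 8 group means Id1 and Id3 had r = 0.77, and Id1 and Id2 had r = -0.68.

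Sox4 was the only one of the 10 genes called higher on all 7 days, a pattern of 112 of all genes (0.562%). Control arrays read 6.36, 6.47 and 6.91 and day 1 arrays already 7.50, 7.62 and 7.85. Day 3 gave 7.89, 7.89 and 7.76, day 4 gave 8.02, 8.02 and 8.21, and day 5 gave 8.41, 8.48 and 8.42. It read much the same on day 7 (8.36, 8.40 and 8.68) and day 9 (8.01, 8.22 and 8.67) and read 8.11, 7.69 and 7.98 on day 11. All 21 treated arrays were above all 3 controls. The rise over control was 1.08 on day 1 (SE 0.16, adjusted p = 0.000283), then 1.27, 1.51 and 1.86 on days 3, 4 and 5. It was greatest on day 7, at 1.90 (3.73-fold, adjusted p = 2.6e-09), followed by 1.72 and 1.35 on days 9 and 11 (adjusted p = 5.73e-07 on day 11). Each group overlapped the next in the order of levels down to day 1, and only control stood apart. A fit of only the 6 arrays of day 1 and control gave the same 1.08 with an adjusted p of 0.148. Of the wider genes, only Sox9, another Sox factor, shared the pattern of 7 calls; it rose by 0.70 on day 1 (adjusted p = 0.0152; 0.55 and 0.0586 without day 1 replicate 1) and by 1.59 on day 9.

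**Figure D3:**
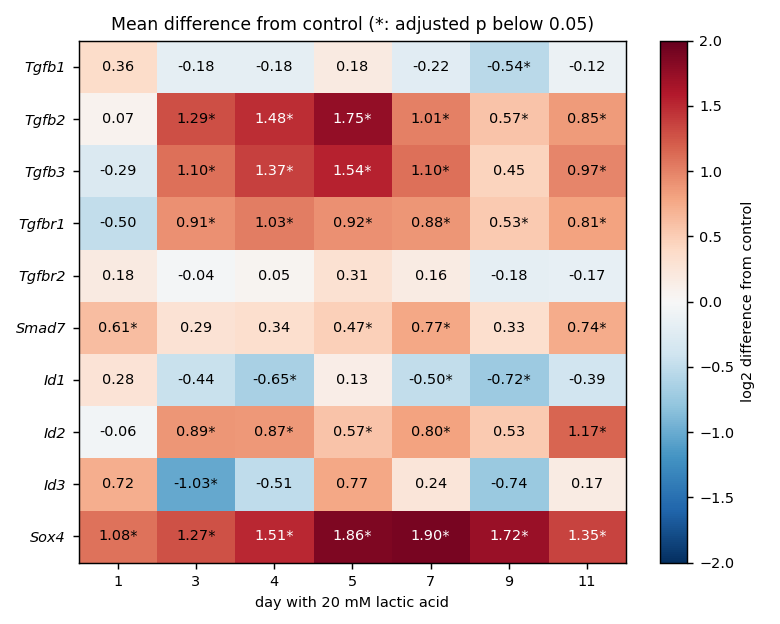
Mean log2 difference of each gene (rows) from control on each day with 20 mM lactic acid (columns), from the limma fit of 24 arrays; the colour scale runs from -2 (blue) to 2 (red) and a star marks an adjusted p below 0.05. Sox4 is starred on all 7 days, with 1.90 on day 7, while Tgfbr2 has no star and Tgfb1 has 1, on day 9 (-0.54).

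Counted over the set, 2 of the 10 genes were called on day 1 (Smad7 and Sox4, both higher), against 4.81% of all genes called, 2.3% higher and 2.52% lower (4.62% and 3.33% after cyclic loess). On day 3 it was 6, with 5 higher and 1 lower, against 26.3% of all genes called, 12.4% higher and 13.9% lower (7.89% and 14.1% with arrays centred on their medians). Day 4 also had 5 higher and 1 lower (26.9% of all genes called, 14.0% higher and 12.9% lower). On day 5, 6 were higher (27.5% called, 17.2% higher and 10.3% lower), and on day 7, 6 were higher and Id1 lower (25.4% called, 16.0% higher and 9.44% lower). Day 9 had 3 higher and 2 lower (27.2% called, 13.1% higher and 14.0% lower; 8.80% and 17.0% after centring), and day 11 had 6 higher (25.8% called, 14.0% higher and 11.8% lower). The median difference of the 10 genes was 0.23, 0.59, 0.60, 0.67, 0.78, 0.39 and 0.77 on days 1, 3, 4, 5, 7, 9 and 11, beside medians of all genes between -0.04 and 0.07. Tgfb2, Tgfbr1 and Sox4 were called higher on all 6 days from day 3 to day 11, as were 6.69% of all genes. These comparisons share the same 3 control arrays. The 10 genes were chosen with earlier results of these data known, so their counts beside the shares of all genes are a description only. Centring moved the median of all genes on day 9 by -0.11, and 3 of the 10 genes were then called. The day 1 count ran from 1 to 3 with 1 array left out, and no gene of the set passed in a fit of only the 6 arrays of day 1 and control (0 called). In the fit of 24 arrays 4 had an unadjusted p under 0.05, a threshold at which all genes were not counted. Calls over all genes on day 1 ranged from 1 to 8640 across the alternative fits.

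Comparisons between neighbouring sampled days, whose differences use no control array although their SE comes from the fit of all 24, placed most changes between day 1 and day 3. There 7 of the 10 genes were called, 4 higher and 3 lower, against 27.3% of all genes (13.6% higher and 13.7% lower). Tgfbr1 rose by 1.42, Tgfb3 by 1.39, Tgfb2 by 1.21 and Id2 by 0.95, while Id3 fell by 1.75, Id1 by 0.72 and Tgfb1 by 0.54 (adjusted p from 0.000633 for Id3 to 0.00412 for Tgfb1 among the falls, and 0.000854 for Id2). Leaving out any 1 array of the 2 groups gave 7 calls each time, and a fit of only these 6 arrays gave 6, with Id1 missing the threshold (adjusted p = 0.0554) and Id3 at 0.000615. Without day 1 replicate 1 the Tgfbr1 rise was 1.07 and the Id1 fall was -0.53 (adjusted p = 2.5e-07 and 0.0117). None of the 10 was called between days 3 and 4, by limma or at an unadjusted p under 0.05 (0 genes), where 1.31% of all genes were. Between days 4 and 5 the Id genes that had fallen returned: Id1 rose by 0.78 (adjusted p = 0.00367) and Id3 by 1.28 (adjusted p = 0.0213), with 12.3% of all genes called, 9.06% higher and 3.29% lower (9.68% and 5.84% after cyclic loess). The Id3 return lost its call without day 4 replicate 2 or 3 or day 5 replicate 2 or 3 (1.20 to 1.28, adjusted p = 0.0602 to 0.0801). From day 5 to day 7, Tgfb2 fell by 0.74 (adjusted p = 0.0163) and Id1 by 0.63 (adjusted p = 0.0281), with 5.20% of genes called, 2.17% higher and 3.03% lower. Without day 7 replicate 3 these were -0.48 and -0.47 (adjusted p = 0.154 and 0.198), and each missed the threshold without day 5 replicate 2 as well (adjusted p = 0.0759 and 0.0744). Without day 5 replicate 3 that of Id1 was -0.53 (adjusted p = 0.13). Tgfb3 fell by 0.65 from day 7 to day 9 (adjusted p = 0.0492, groups overlapping). There 4.76% of genes were called, 1.03% higher and 3.74% lower (1.04% and 1.25% after cyclic loess, 0.647% and 9.84% after centring). The Tgfb3 fall was -0.14 without day 1 replicate 1 and day 9 replicates 2 and 3, which left 1 day 9 array. It also missed the threshold without day 7 replicate 1 or 2 or day 9 replicate 2 or 3 (adjusted p = 0.165 to 0.383). Without day 9 replicate 1, 6 of the 10 genes were called lower from day 7 to day 9, with Id3 at -1.58 and Smad7 at -0.69. Calls over all genes for this step ranged from 0 to 10744 across the alternative fits, so the count is not read as particular to these genes. Between days 9 and 11 limma called none of the 10 and 0.0451% of all genes. An unadjusted p under 0.05 was found for 6 of the 10, a threshold at which all genes were not counted. Without day 9 replicate 1 limma called 4 (Tgfb1, Tgfb3, Smad7 and Id3), each higher. For this step too the calls over all genes varied across the alternative fits, from 0 to 6343.

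The genes most like each of the 10, by Pearson correlation over the 8 group means, are given as a description; the means share arrays and normalisation, and a step between day 1 and day 3 is common to many genes. Tgfbr1 was most like Rps6ka5 (r = 0.995), Nipbl (0.992) and Srpk2 (0.99), Tgfb2 like Ascc1 (0.989), Dock6 (0.986) and Trib2 (0.986), and Tgfb3 like Tmem37 (0.991), Etv1 (0.987) and Taok3 (0.985). Id2 was most like Tgif1 (0.972), a Smad corepressor gene, followed by Irf2 (0.97) and Zeb2 (0.963). Sox4 was nearest to Med13l (0.967), Cdyl (0.967) and Exoc3 (0.963). Id1 came with Nefl (0.975), Sik3 (0.969) and Nectin1 (0.967), and Id3 with Itga3 (0.973), Pex16 (0.963) and Grb7 (0.949). Smad7 had the loosest match, Taf3 (0.942), then Dnajb12 (0.937) and Uhrf1bp1l (0.926). Tgfb1 was near Magea6 (0.98), Rbm15 (0.978) and Dock8 (0.963), and Tgfbr2 near Smurf1 (0.99), a ubiquitin ligase gene of the pathway, Wipf2 (0.982) and Chmp1a (0.981). Over the 24 single arrays the Tgfbr2 and Smurf1 signals had r = 0.574.

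The other genes of the pathway were read from 8 lists by role, with 96 of 99 genes measured. The other 3 are not analysed here. These lists too were chosen with earlier results of these data known, so their counts are a description only. From day 3 to day 11, 12.4% to 17.2% of all genes were called higher on a given day and 9.44% to 14.0% lower, and the counts below stand beside these shares. Of 10 genes of the latent complex and its activation, 5, 6, 8, 7, 5 and 6 were called higher on days 3, 4, 5, 7, 9 and 11, none was called lower on any day, and none was called on day 1 in either direction. Their median difference was 1.01 on day 5, beside 0.06 for all genes. Thbs1, whose product thrombospondin 1 activates latent TGF-beta, rose by 2.34 on day 5 (SE 0.23, adjusted p = 4.18e-08). Ltbp3 and Ltbp4, latent TGF-beta binding proteins, rose by 2.15 on day 5 (SE 0.19) and 2.08 on day 7 (SE 0.15). Ltbp1 and Ltbp2 were higher by 1.19 and 1.79 on day 5 (adjusted p = 5.21e-07 and 3.13e-07). After centring of the arrays the counts on days 3 and 9 were 3 and 3, and Ltbp2 missed the threshold on both (adjusted p = 0.137 and 0.123).

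On day 1 none of the other receptors, Smads, inhibitors or Id partners was called, nor more than 2 genes of any other list. Of 11 other receptors and co-receptors, 5, 6, 6, 6, 4 and 5 were called higher from day 3 to day 11, and none lower. Tgfbr3, the betaglycan gene, rose by 1.20 on day 3 and 2.12 on day 5 (SE 0.16, adjusted p = 9.67e-10). The BMP receptor gene Bmpr2 rose by 1.33 on day 11 (SE 0.22) and the activin receptor gene Acvr2a by 1.13 on day 7 (SE 0.14). Of 20 other ligands of the superfamily, 0 to 3 were called higher and 0 to 2 lower on any day, with Gdf10 up by 0.87 on day 4, Bmp1, a protease grouped with the ligands by name, up by 0.81 on day 5, Bmp7 up by 0.72 on day 5, Gdf6 with -0.64 on day 7 and Gdf11 with -0.61 on day 11. Among 10 Smads and their partners, 2 were called higher on day 3 (4 after cyclic loess or without day 1 replicate 1) and 3 to 5 on later days. Smad3, the receptor-activated Smad, rose by 1.55 on day 7 (SE 0.15, adjusted p = 2.43e-08), Trim33 by 0.94 and Zfyve9 by 0.81 on day 4. Smad6, the inhibitory Smad of the BMP branch, was called on day 5 only (0.42, adjusted p = 0.0157).

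Of 18 pathway inhibitors, 12 to 14 were not called on a given day from day 3 on. On those days 2 to 5 were called higher and 1 or 2 lower, beside 12.4% to 17.2% of all genes higher and 9.44% to 14.0% lower. Skil, the SnoN corepressor gene, rose by 1.70 on day 7 (SE 0.15, adjusted p = 4.06e-09), and Tgif1 by 0.98 on day 11 (SE 0.11). Pmepa1 was called higher from day 5, by 0.76 on day 9 (SE 0.17). Fstl3, an activin antagonist, fell by 0.94 on day 3 and Fkbp1a, which binds the resting type I receptor, by 0.81 on the same day. Bambi, a decoy receptor, was called on none of the 7 days, with differences of -0.16 to 0.25. Targets that TGF-beta induces in many cells were read from a list of 14, of which 6 stand in another list too. From day 3 on 4 to 8 were called higher and 0 to 3 lower. Fn1, fibronectin, rose by 2.56 on day 7 (SE 0.14, adjusted p = 2.46e-12), and 8 were higher and none lower on day 5. Ccn2, a matricellular growth factor gene, fell by 1.49 on day 3 (SE 0.19), read 0.05 on day 5 and was lower again on days 7, 9 and 11 (-0.63 to -0.69). Jun, an AP-1 subunit, fell by 1.15 on day 3 and was called on no other day.

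Among 7 partners of the Id proteins, 3 were called higher on each of days 3 to 11 and 0 to 2 lower, beside 12.4% to 17.2% of all genes higher and 9.44% to 14.0% lower. The E protein genes Tcf4 and Tcf12 rose by 1.48 on day 5 (SE 0.15) and 0.99 on day 7 (SE 0.13), and Rb1, the retinoblastoma gene, rose by 1.00 on day 5. The E protein gene Tcf3 fell by 0.75 on day 3 (SE 0.13), 0.72 on day 4, 0.70 on day 9 and 0.72 on day 11, and was not called on days 5 and 7 (-0.21 and -0.26). Ets1 fell by 0.80 on day 9, and Myod1, a muscle factor, by 0.58 on day 7. Of 12 SoxC relatives and factors of epithelial-mesenchymal change, 3 or 4 were called higher and 1 or 2 lower from day 3 on. The other SoxC genes, Sox11 and Sox12, were called on none of the 7 days (-0.21 to 0.37), with Sox11 dim at 3.35 in control. Zeb2, a repressor of epithelial genes, rose by 0.82 on day 11, and Cdh1, the E-cadherin gene it represses elsewhere, rose by 0.82 on day 5. Vim, vimentin, fell by 1.20 on day 9 and Ezh2, a chromatin regulator that Sox4 activates in some cells, fell by 1.64 on day 7 (SE 0.11, adjusted p = 6.71e-11). These lists are described by their counts and were put to no test of their own.

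**Figure D4:**
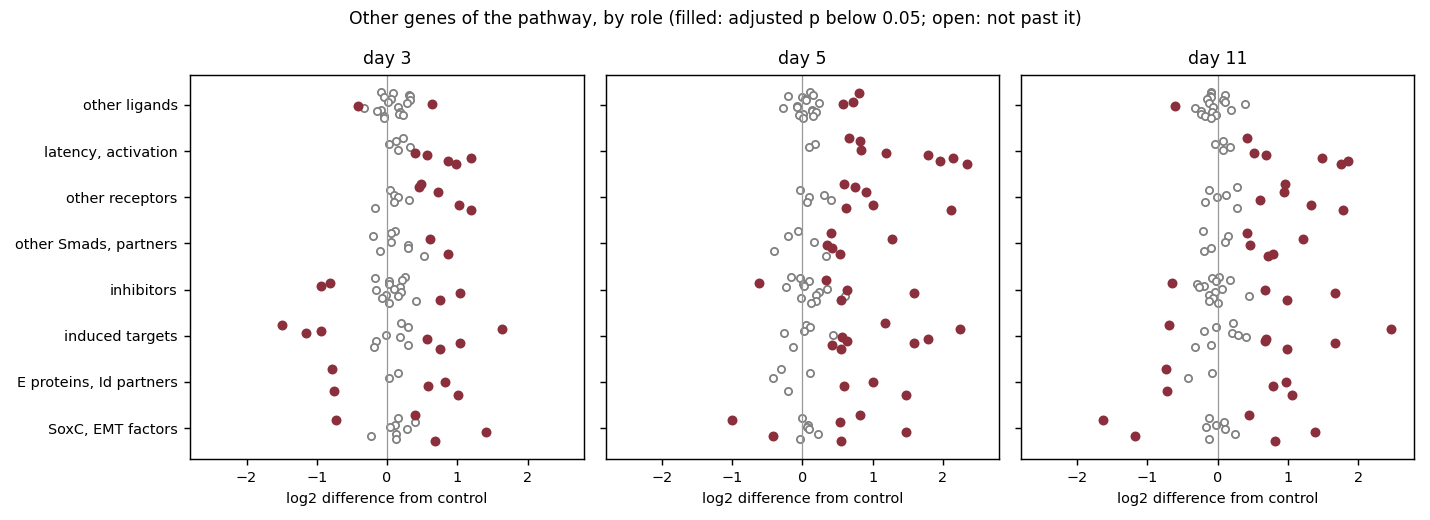
Log2 difference from control (x axis) of each measured gene of the 8 lists (rows, by role) on days 3, 5 and 11; filled points have an adjusted p below 0.05 in the limma fit and open points do not. In the row for latency and activation 8 of 10 points are filled on day 5, all to the right of 0.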

How the data were processed

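Arrays were grouped by their titles. The authors deposited 1 table of log2 signals; the submitters' processing notes name RMA and Affymetrix Expression Console 1.1. The log base was inferred from the range (0.96 to 14.71), and RMA's settings are not stated in the sources used. Of 35557 probe sets, an annotation of 2016 gave 21789 a single symbol and 1621 several, and 12147 had none. A gene was its brightest probe set with 1 symbol. The 3 arrays a group limit the precision (median replicate SD 0.198).

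Group means were fitted to all 24 arrays with lmFit and eBayes (limma 3.58.1, R 4.3.3, 16 residual degrees of freedom; tested on simulated data), with Benjamini-Hochberg adjustment over all genes. Each treated day was set against control and against the sampled day before, and an F test compared the 7 treated days. Figures used matplotlib 3.10.9. From each list, up to 3 rises and 3 falls with the largest difference on any day, called and not overlapping control, are named, with Ccn2, Skil, Pmepa1, Tgif1, Bambi and Smad6; Ltbp1, Sox11, Sox12 and the values of Tcf3 after day 3 were named after their values were seen. The 10 genes and the lists were chosen with earlier results of these data known. Same-numbered control and day 1 arrays deviated together (correlations 0.29, 0.22 and 0.11 over genes). The labels do not say that the numbers mark a shared batch, and whether they pair these groups is not known. The other 18 pairs with control had -0.09 to 0.16, with 0.16, 0.04 and 0.11 for control and day 11. Alternatives were other probe set summaries, filters, normalisations, variance models, array weights, a replicate block, a stricter threshold and arrays left out. The block with only the arrays compared, and leaving out day 1 replicate 1 and control replicate 1 together, were added after seeing the data.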

Additional observations from a re-analysis of the deposited data

Results flagged for a closer look

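These results stand here because the effect relative to control differed between neighbouring sampled days (limma test of the difference itself, adjusted p below 0.05). This rule took no account of outlying arrays, and fits with arrays left out are given in the Results. From day 1 to day 3 the differences were 1.42 for Tgfbr1, 1.39 for Tgfb3, 1.21 for Tgfb2 and 0.95 for Id2, and -1.75 for Id3, -0.72 for Id1 and -0.54 for Tgfb1. From day 4 to day 5 they were 1.28 for Id3 and 0.78 for Id1. From day 5 to day 7 they were -0.74 for Tgfb2 and -0.63 for Id1. From day 7 to day 9 the difference was -0.65 for Tgfb3, a call lost without day 7 replicate 1 or 2 or day 9 replicate 2 or 3.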

How the results depend on the processing

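Counts are of the 10 genes called. On day 1 the count of 2 became 1 with every probe set tested, with centred arrays, at a threshold of 0.01 and without day 1 replicate 1 and control replicate 1 together, 5 with array weights, and 0 with only the arrays compared, with or without a replicate block; leaving out 1 array gave 1 to 3. On day 9 the 5 became 3 with centred arrays, 3 at the 0.01 threshold and 9 with array weights. Leaving out 1 array gave 5 to 7 on day 3, 6 to 7 on day 4, 4 to 7 on day 5, 6 to 7 on day 7, 3 to 6 on day 9, 6 to 7 on day 11 and 9 to 10 in the F test. Between days 3 and 4 the 0 became 1 with only the arrays compared. Between days 4 and 5 the 2 became 4 with array weights, with only the arrays compared and without day 1 replicate 1 and day 9 replicates 2 and 3, and 1 at 0.01 (1 to 2 with 1 array left out). Between days 5 and 7 the 2 became 1 with centred arrays, 0 at 0.01 or with only the arrays compared, and 4 without the 3 arrays (0 to 3). Between days 7 and 9 the 1 became 0 with every probe set, cyclic loess or the replicate block. It was also 0 at 0.01 and with only the arrays compared. The count became 2 with centred arrays and 8 with array weights (0 to 6, with 3 without day 1 replicate 1). Between days 9 and 11 the 0 became 8 with array weights (0 to 4). Calls over all 19938 genes also rose with array weights. They were 8640 on day 1, 11705 on day 9, 10744 between days 7 and 9 and 6343 between days 9 and 11 (960, 5414, 950 and 9 as reported). Without the 3 arrays they were 5191 between days 4 and 5 and 3731 between days 5 and 7 (2461 and 1036 as reported). Array weights, which ran from 0.01 to 28.3, turned the day 1 differences of Id2 to 0.30, Bmpr2 to 0.29, Zfyve9 to 0.34 and Fstl3 to -0.20. The cause of these changes was not tested.

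The replicate block in the fit of 24 arrays gave 2, 5, 6, 6, 7, 6 and 6 calls on the 7 days; Id3 on day 3 and Tgfb3 from day 7 to day 9 lost their calls (adjusted p = 0.0507 and 0.0605) and Id2 on day 9 gained one (0.0384). For day 1, the block with only the 6 arrays gave adjusted p = 0.252 for Sox4 and 0.555 for Smad7. Over all genes, calls on day 1 ranged from 1 to 8640 (960 as reported), on the other days from 3789 on day 3 to 11705 on day 9 (5074 to 5477 as reported), and between days 7 and 9 from 0 to 10744 (950). Dim signals such as Tgfb2 in control limit what a fold can show.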
